A study of Homo sapiens with 6 samples.

Results

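The 7 CDK inhibitor genes of the human genome were followed in HCT116 cells, a line from a human colorectal carcinoma, after transfection with miR-8485. They were taken by gene symbol, a rule that uses no measured value. The set itself was chosen with earlier results of these data known. All 7 were found among the 58735 genes listed, and all 7 passed the filter that left 12349 genes to test. They form 2 families, the CIP/KIP genes CDKN1A, CDKN1B and CDKN1C and the INK4 genes CDKN2A, CDKN2B, CDKN2C and CDKN2D. The study transfected HCT116 cells with 50 nM of miR-8485 mimics or with a control (CTR). RNA was sequenced from 3 independent biological replicates of each group. Cells were collected 48 h after transfection or at times named per assay, and none is named for the sequenced RNA. The labels give the genotype as WT for the control cells and name the mimic in that field for the treated cells. Both groups are thus 1 cell line, and the sequence and dose of the control transfection are not given in the sources used here.

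Progression of the cell cycle is driven by cyclin-dependent kinases (CDKs) bound to cyclins, and CDK inhibitors hold these kinases back. The INK4 proteins bind the kinases CDK4 and CDK6 themselves and keep D-type cyclins away from them. The CIP/KIP proteins bind assembled cyclin-CDK complexes, block those of CDK2 in particular, and can help to assemble cyclin D with CDK4. In colorectal epithelium the CIP/KIP proteins p21 and p27 are known to rise as cells stop dividing and differentiate.

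A mimic is a short synthetic RNA that stands in for the mature miRNA. It finds mRNAs mainly through its seed, bases 2 to 8, shown in capitals because the sites below were searched with it:
miR-8485 mimic: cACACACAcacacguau
The word that pairs with the whole seed is TGTGTGT, and the shorter word that pairs with bases 2 to 7 is GTGTGT. In the 3′ UTRs of the transcripts that GENCODE release 44 tags as canonical (GRCh38), 3 of the 7 members held either word, and these are shown with the word in capitals and 10 bases on each side:
CDKN1A, chr6:36685881-36685887, plus strand: agtctcagttTGTGTGTcttaattatt
CDKN2B, chr9:22005728-22005733, minus strand: atatttaggaGTGTGTgacattccag
CDKN2D, chr19:10566856-10566861, minus strand: actccttttgGTGTGTtggacagaga
The 7-base word stood only in CDKN1A, 81 bases after the stop codon in a 3′ UTR of 1532 bases. Of the 1503 tested genes with a canonical 3′ UTR within 20% of that length, 26.5% held it. The 6-base word in CDKN2B lay in a 3′ UTR of 3084 bases, where 68.5% of genes of like length have it, and that in CDKN2D in one of 598 bases, where 21.2% do. CDKN1B, CDKN1C, CDKN2A and CDKN2C held neither word in their canonical 3′ UTRs of 1342, 703, 477 and 364 bases. In the longest annotated 3′ UTR of CDKN1B, with 3266 bases, 1 copy of TGTGTGT was found, which made 2 members with the full word. A match of letters is not a measured binding site, and which 3′ UTRs the cells use was not measured.

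The deposited FPKM values, fragments per kilobase of gene scaled to the library total, came from libraries with 17473874 to 18480047 fragments on listed genes. Genes were compared by limma on log2(FPKM + 0.1) with Benjamini-Hochberg adjustment over all 12349 genes with a mean of at least 1 FPKM, and genes with an adjusted p below 0.05 are referred to as upregulated or downregulated. CTR replicate 1 stood somewhat apart. The chi-square per gene between its fragments and those of the other 2 CTR libraries was 8.46 and 10.5, against 2.75 to 3.87 for the other 4 pairs within a group. The epithelial markers EPCAM, CDH1, KRT8, KRT18 and KRT19 were well above 1 FPKM, with EPCAM at a mean of 135 FPKM in CTR. The intestinal gene VIL1 was near 0. Of 5 markers of other cell types, PTPRC, PECAM1 and COL1A2 were below 0.1 FPKM in every library, while COL1A1 had a mean of 4.25 FPKM in CTR and 6.31 FPKM in miR-8485 and DES 1.999 and 0.544 FPKM. The summed level of these 5 markers was 6.08 to 6.43 FPKM in CTR and 6.78 to 6.94 FPKM in miR-8485. Of the epithelial markers, KRT8, KRT18 and KRT19 were downregulated (log2 fold changes of -0.62, -0.97 and -0.58), while EPCAM and CDH1 did not pass the test (-0.048 and -0.049, limma adjusted p = 0.55 and 0.38). The part of these shifts in the results on the inhibitors was not tested.

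Of the 7 CDK inhibitor genes, 6 were downregulated in the miR-8485 libraries and 0 were upregulated in limma, where 30.5% of all tested genes were downregulated and 29.1% upregulated, 59.6% in either direction. All 3 CIP/KIP genes fell, with log2 fold changes of -0.68 to -0.53. Of the 4 INK4 genes, CDKN2B, CDKN2D and CDKN2C fell, with log2 fold changes of -1.71, -1.26 and -0.74, and CDKN2A had a log2 fold change of 0.18 that was not past the threshold. For the same 6 genes every miR-8485 library lay below every CTR library, as for 34.0% of all tested genes, while for 32.5% every miR-8485 library lay above. The median log2 fold change was -0.68 over the 7 members, -0.55 over the CIP/KIP genes and -1.0002 over the INK4 genes, against -0.0041 over all tested genes. These are shares of the RNA of whole cultures, so that fewer cells expressing a gene and less of its RNA per cell cannot be told apart.

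**Figure D1:**
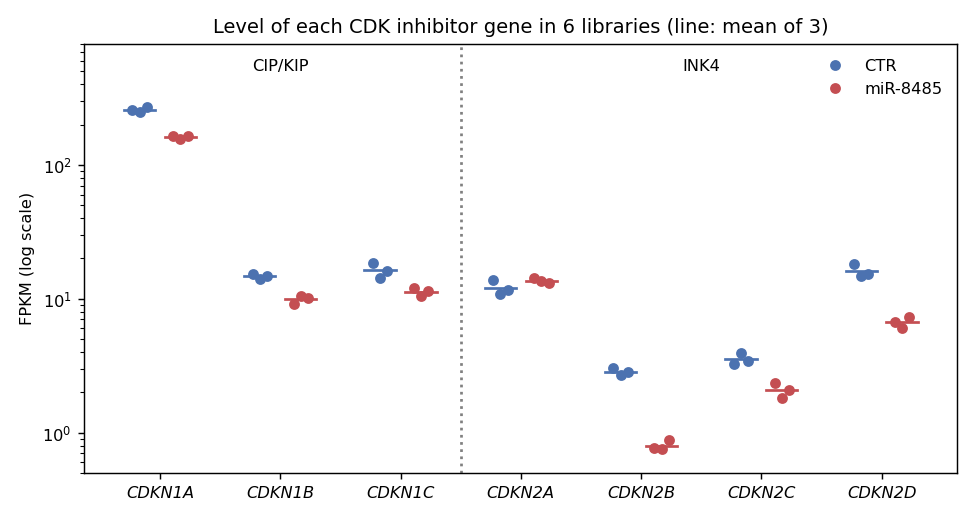
FPKM on a log axis of the 7 CDK inhibitor genes, with 1 point per library and a line at the mean of 3 libraries, CTR in blue and miR-8485 in red. The red points lie below the blue ones for every gene except CDKN2A, and CDKN1A stands far above the other 6 genes in both groups.

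CDKN1A encodes p21, which inhibits CDK2 complexes and holds cells back before S phase. In hg38, the build of the files, it occupies the plus strand of chromosome 6 (36676460 to 36687339). It had 255, 248 and 273 FPKM in CTR replicates 1 to 3 and 164, 156 and 164 FPKM in miR-8485 replicates 1 to 3. The lowest CTR library was thus well above the highest miR-8485 library, with at least 8617 fragments behind each value. Group means were 259 ± 12.7 and 161 ± 4.34 FPKM (SD, n = 3). This gave a log2 fold change of -0.68 (standard error 0.05, 95% interval -0.80 to -0.57, adjusted p = 2.7e-05 in limma). DINOL, a noncoding gene on the other strand that shares 146 annotated exon bases with CDKN1A, had at most 7 fragments in any library.

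CDKN1B encodes p27, an inhibitor of CDK2 complexes that is abundant in resting cells and is removed by ubiquitination as cells enter S phase. On the plus strand of chromosome 12 (12715058 to 12722371), it had 15.3, 14.0 and 14.8 FPKM in CTR and 9.21, 10.6 and 10.2 FPKM in miR-8485. The groups did not overlap, and CDKN1B had a log2 fold change of -0.55 (SE 0.07, 95% interval -0.71 to -0.40, adjusted p = 3.0e-04 in limma).

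CDKN1C encodes p57, an inhibitor from an imprinted gene with roles in development. On the minus strand of chromosome 11 (2883213 to 2885773), it had 18.4, 14.3 and 16.3 FPKM in CTR and 11.9, 10.5 and 11.4 FPKM in miR-8485. The CTR libraries spread more than the miR-8485 libraries, with an SD of 2.02 against 0.739 FPKM (n = 3 each), and the groups did not overlap. The log2 fold change was -0.53 (standard error 0.09, 95% interval -0.75 to -0.31, adjusted p = 0.0022 in limma). The 95% intervals of the 3 CIP/KIP genes overlapped one another.

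CDKN2B encodes p15, an inhibitor of CDK4 and CDK6 that is known to be induced by transforming growth factor beta. Its fold change was the lowest of the 7. On the minus strand of chromosome 9 (22002903 to 22009363), it had 3.02, 2.68 and 2.83 FPKM in CTR and 0.768, 0.749 and 0.880 FPKM in miR-8485. These values rest on 221, 197 and 208 fragments and on 56, 55 and 68 fragments, so the gene was low but counted well above 0 in all 6 libraries. The log2 fold change was -1.71 (standard error 0.13, 95% interval -2.01 to -1.41, adjusted p = 3.3e-05 in limma), and 1.03% of the tested genes had a lower one. Because its level is low, the pseudocount matters, and with 1 FPKM added in place of 0.1 the log2 fold change was -1.10.

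CDKN2D encodes p19, the INK4 inhibitor with a level that is known to rise in S phase of cycling cells. On the minus strand of chromosome 19 (10566462 to 10569059), it had 18.1, 14.9 and 15.2 FPKM in CTR and 6.67, 5.996 and 7.34 FPKM in miR-8485. Every CTR library was well above every miR-8485 library. The log2 fold change was -1.26 (standard error 0.10, 95% interval -1.49 to -1.03, adjusted p = 4.0e-05 in limma).

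CDKN2C encodes p18, a further inhibitor of CDK4 and CDK6. On the plus strand of chromosome 1 (50960745 to 50974633), it had 3.24, 3.93 and 3.43 FPKM in CTR and 2.33, 1.80 and 2.09 FPKM in miR-8485, from 108 to 236 fragments. The groups did not overlap, and a log2 fold change of -0.74 was found (standard error 0.12, 95% interval -1.02 to -0.46, adjusted p = 0.0013 in limma).

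CDKN2A, the remaining INK4 gene, encodes p16 and, from another first exon and in another reading frame, p14ARF. The gene-level value adds up both transcripts. On the minus strand of chromosome 9 (21967753 to 21995301), it had 13.7, 10.9 and 11.7 FPKM in CTR and 14.4, 13.5 and 13.1 FPKM in miR-8485. CTR replicate 1 reached into the range of the miR-8485 libraries, and the other 2 CTR libraries lay below it. The log2 fold change was 0.18 (standard error 0.09, 95% interval -0.025 to 0.38, adjusted p = 0.11 in limma), so a fall like that of the other INK4 genes lies outside the interval. The result depended on single CTR libraries. Without CTR replicate 1 the log2 fold change was 0.27, and CDKN2A was upregulated (limma adjusted p = 0.0099), and without CTR replicate 2 it was 0.11 (limma adjusted p = 0.32). It was also upregulated when fragments were tested by limma's voom (log2 fold change 0.19, adjusted p = 0.035). Over all alternatives the limma adjusted p lay between 0.0099 and 0.60.

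**Figure D2:**
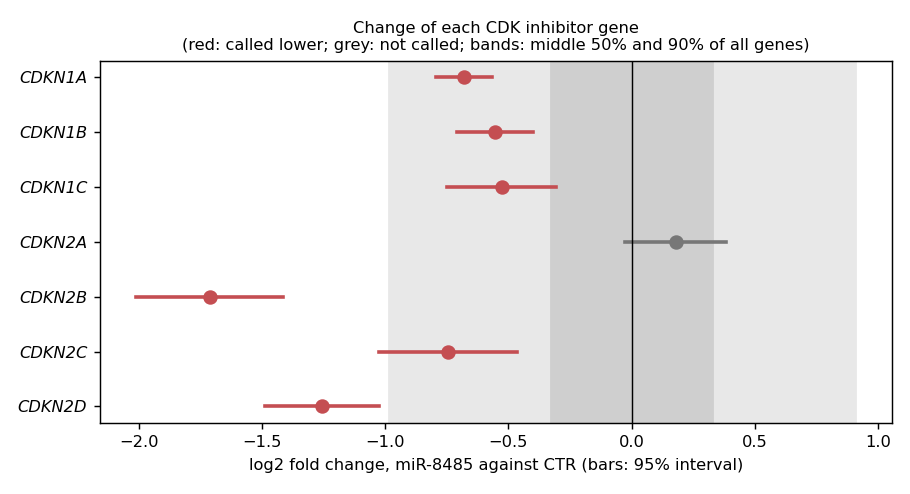
Log2 fold change of each CDK inhibitor gene in miR-8485 against CTR, with its 95% interval from limma. The 6 red genes were called lower and the interval of CDKN2A includes 0, and the grey bands hold the middle 50% and 90% of the 12349 tested genes.

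CDKN2A and CDKN2B lie next to each other on chromosome 9, and their ratio stood higher in all 3 miR-8485 libraries. Within a library, the ratio of CDKN2A to CDKN2B in FPKM was 4.54, 4.06 and 4.14 in CTR and 18.7, 18.0 and 14.9 in miR-8485. The ranges did not overlap, and no test is given, because the pair was chosen with both changes known. MTAP, which encodes an enzyme of methionine salvage and lies on the other side of CDKN2A, had means of 18.5 ± 0.477 and 14.1 ± 0.596 FPKM (SD, n = 3) and was downregulated (log2 fold change -0.39, limma adjusted p = 4.0e-04). CDKN2B-AS1, the antisense RNA of the locus, spans all of CDKN2B and shares 593 of the 3885 annotated exon bases of CDKN2A. It had 7, 6 and 6 fragments in CTR and 10, 16 and 19 in miR-8485, too low to pass the filter. The strand setting of the counting is not given in the sources used here. Reads of the sense and antisense genes may thus not have been separated where they overlap. CDKN2A itself had at least 854 fragments in every library, and how many of them came from the shared bases is not known.

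The windows from 250 bases before to 50 bases after the annotated starts of these 2 genes are shown because the neighbors differed in their change, with the GC box GGGCGG, or CCGCCC where it lies on the other strand, in capitals (RefSeq, GRCh38.p14, all on the minus strand):
CDKN2B, chr9:22009256-22009555: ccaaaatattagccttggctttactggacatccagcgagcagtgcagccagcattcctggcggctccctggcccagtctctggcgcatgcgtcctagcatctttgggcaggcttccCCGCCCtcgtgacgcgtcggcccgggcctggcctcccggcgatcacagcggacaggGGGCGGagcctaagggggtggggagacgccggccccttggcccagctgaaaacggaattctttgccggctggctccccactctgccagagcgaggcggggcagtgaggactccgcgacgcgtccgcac
CDKN2A, start of the p16 transcript, chr9:21974808-21975107: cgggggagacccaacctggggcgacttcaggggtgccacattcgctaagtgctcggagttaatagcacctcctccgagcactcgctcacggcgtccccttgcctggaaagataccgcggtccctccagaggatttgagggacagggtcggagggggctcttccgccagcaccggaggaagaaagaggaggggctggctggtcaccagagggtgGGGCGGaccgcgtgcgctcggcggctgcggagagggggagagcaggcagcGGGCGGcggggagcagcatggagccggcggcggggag
CDKN2A, start of the p14ARF transcript, chr9:21995275-21995574: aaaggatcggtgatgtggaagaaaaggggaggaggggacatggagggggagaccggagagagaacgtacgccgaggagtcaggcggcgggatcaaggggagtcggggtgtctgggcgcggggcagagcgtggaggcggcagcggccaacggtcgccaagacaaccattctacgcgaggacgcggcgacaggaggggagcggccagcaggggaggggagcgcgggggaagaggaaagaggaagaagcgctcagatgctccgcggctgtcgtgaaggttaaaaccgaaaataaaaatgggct
The CDKN2B window and the window of the p16 start held 2 GC boxes each, and the window of the p14ARF start held 0. The word is common, since 45.0% of 35116 windows of this length held it on either strand. Among the other members it was found 4 times in CDKN1A, 3 times in CDKN2D and once in CDKN1B, while CDKN2C, with 3 annotated starts, had 0, 6 and 1 copies. The word stood in members with a called fall and in CDKN2A, the only member not called, and a link with the changes was not tested. For CDKN1C no window was available to search. Among the windows searched, the E-box CACGTG, which reads the same on both strands, was found only in those of CDKN2C. There 2 of the 3 windows held 1 copy, against 7.26% of all windows.

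The order of levels in FPKM changed between the groups. FPKM divides by the annotated length of each gene, such as 4329 bases for CDKN2A and 1503 for CDKN2D. Which transcripts the cells use was not measured, so ranks between genes depend on these lengths. In CTR, CDKN1A had the highest level, 15.9 times that of CDKN1C, the next gene. CDKN1C, CDKN2D and CDKN1B followed with means of 16.3, 16.1 and 14.7 FPKM, and each overlapped its neighbor in this order. CDKN2A came next with 12.1 FPKM, below CDKN1B without overlap, and then CDKN2C with 3.54 and CDKN2B with 2.85 FPKM. In miR-8485, CDKN2A with 13.7 FPKM ranked second behind CDKN1A with 161 FPKM. It was followed by CDKN1C with 11.3 and CDKN1B with 9.98 FPKM, which overlapped, and then by CDKN2D with 6.67, CDKN2C with 2.07 and CDKN2B with 0.799 FPKM without overlap.

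As family sums, CIP/KIP and INK4 RNA were both lower in every miR-8485 library than in every CTR library. The summed FPKM of the CIP/KIP genes was 289, 277 and 304 in CTR and 185, 177 and 185 in miR-8485, a log2 ratio of the means of -0.67. That of the INK4 genes was 38.1, 32.4 and 33.2 in CTR and 24.2, 22.1 and 23.4 in miR-8485, a log2 ratio of -0.57. The ratio of the CIP/KIP to the INK4 sum within a library was 7.59 to 9.15 in CTR and 7.66 to 8.03 in miR-8485, so the groups overlapped. CDKN1A alone made up 78.1% to 81.0% of the summed FPKM of all 7 genes in CTR and 78.3% to 78.4% in miR-8485. Without CDKN1A, the CIP/KIP sum went from 31.0 ± 2.67 to 21.2 ± 0.268 FPKM (SD, n = 3), a log2 ratio of -0.55. Without CDKN2A, the INK4 sum went from 22.4 ± 1.64 to 9.54 ± 0.902 FPKM (SD, n = 3), a log2 ratio of -1.23. CDKN2A made up 35.0% ± 1.22 of the INK4 sum in CTR and 58.9% ± 2.70 in miR-8485 (SD, n = 3), with no overlap. The weight of each gene in these sums and shares depends on its annotated length. No test is given for these sums, because their members were chosen with results of these data known.

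**Figure D3:**
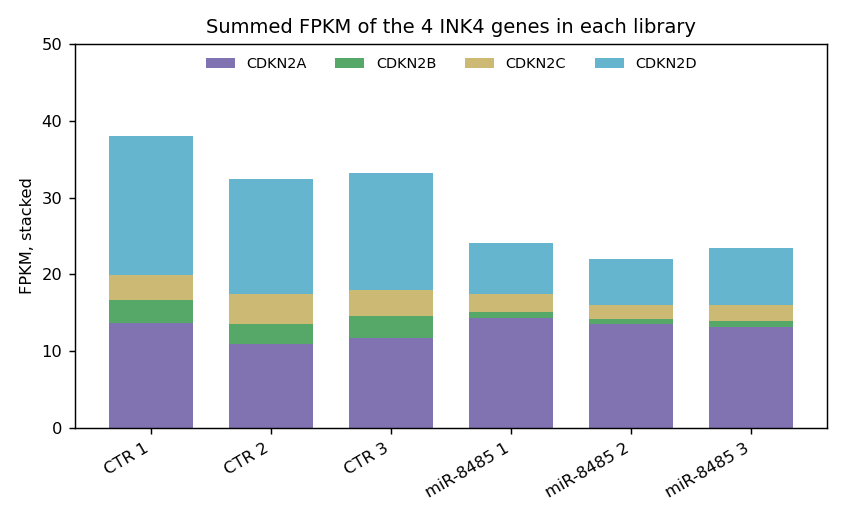
Stacked FPKM of the 4 INK4 genes in each of the 6 libraries. The total falls from 32.4 to 38.1 FPKM in CTR to 22.1 to 24.2 FPKM in miR-8485, while the CDKN2A part stays at 10.9 to 14.4 FPKM and the CDKN2D and CDKN2B parts shrink.

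For the kinases and cyclins that the inhibitors act on, 11 of 12 genes were tested, of which 9 were downregulated and 2 upregulated in limma, with a median log2 fold change of -0.39, against 30.5% and 29.1% of all tested genes. Over the alternatives 6 to 9 of them were downregulated. CCND2 was not tested, being at or near 0 in every library. The 2 upregulated genes were the kinases that INK4 proteins bind. CDK4 had 25.9, 26.4 and 28.6 FPKM in CTR and 39.7, 39.8 and 37.2 FPKM in miR-8485, and its log2 fold change was 0.53 (limma adjusted p = 1.5e-04). CDK6 had a log2 fold change of 0.27 (limma adjusted p = 0.019). Its call was lost without CTR replicate 1 (0.22), without miR-8485 replicate 2 (0.21), in TPM (0.16) and without a filter. The largest falls were those of CCND1, the D-type cyclin that activates CDK4 and CDK6, with means of 216 ± 7.21 and 23.7 ± 1.69 FPKM (SD, n = 3) and a log2 fold change of -3.18, and of CDK1, the kinase of mitosis, with -1.08. The cyclin A and B genes CCNA2, CCNB1 and CCNB2 also fell, with log2 fold changes of -0.91, -0.88 and -0.29, as did the cyclin E genes CCNE1 and CCNE2 with -0.43 and -0.39. CDK2, the main kinase bound by CIP/KIP proteins, had -0.20 and CCND3 -0.16 (limma adjusted p = 0.029 and 0.047). Both calls were weak, that of CDK2 past the threshold in 11 and that of CCND3 in 7 of 18 alternatives. The CDK2 call was lost without CTR replicate 2 or 3 or miR-8485 replicate 1 or 2, and the CCND3 call without CTR replicate 1 or 3 or any 1 of the miR-8485 libraries. The CCNE2 call was lost without CTR replicate 3, without miR-8485 replicate 1 and with the GC trend removed. The INK4 sum divided by the sum of CDK4 and CDK6, in FPKM, was 1.01 to 1.28 in CTR and 0.487 to 0.558 in miR-8485, with no overlap. The CIP/KIP sum, mostly CDKN1A, divided by CDK2 was 12.4 to 13.9 in CTR and 9.17 to 10.7 in miR-8485, again with no overlap. Both are ratios of mRNA and not of protein, and their size depends on the annotated gene lengths. CDKN2A, with its p16 and p14ARF transcripts added up, made up a mean of 35.0% of the INK4 sum in CTR and 58.9% in miR-8485.

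CIP/KIP proteins are also set by turnover, through the ubiquitin ligases SCF with SKP2 for p27 and CRL4 with DTL for p21. Of the 12 genes of these ligases and their helpers, 4 were downregulated, 1 was upregulated and 7 were not called in limma, with a median log2 fold change of 0.0067. The share downregulated was close to the 30.5% of all tested genes, and the share upregulated was below their 29.1%. DDB1 and DTL, the adaptor and the substrate receptor of CRL4, fell with log2 fold changes of -0.91 and -0.86, and the cullin CUL1 with -0.40. The conjugating enzyme UBE2R2 had -0.12 (limma adjusted p = 0.038). SKP2, the receptor for p27, had means of 9.76 ± 0.524 and 11.3 ± 0.718 FPKM (SD, n = 3), with no overlap and a log2 fold change of 0.21 (limma adjusted p = 0.026). This call was lost without CTR replicate 1 (0.19), CTR replicate 3 (0.20), miR-8485 replicate 2 (0.19) or miR-8485 replicate 3 (0.18), in TPM (0.098) and without a filter. Protein levels were not measured here.

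A further 22 genes encode factors that are known to raise or to repress transcription of the inhibitor genes. Of these, 10 were downregulated, 6 upregulated and 6 not called in limma, with a median log2 fold change of -0.087. Because the list mixes both kinds, a rise or a fall in it has no single meaning for the inhibitors. Which way each factor acts in these cells was not tested. Over all tested genes 30.5% were downregulated and 29.1% upregulated, so the upregulated share was close to that of all genes. The largest falls were those of KLF6 and KLF4, zinc finger factors known to raise CDKN1A, with log2 fold changes of -1.01 and -0.999. SMAD3 and SMAD4, which are known to carry the transforming growth factor beta signal to CDKN2B, had -0.60 and -0.59 and were downregulated. SMAD2 of the same signal had -0.099 and did not pass the test (limma adjusted p = 0.30). Whether this signal is active in these cells was not tested. SP1, which binds GC boxes, was downregulated with -0.53. Some other factors of the list were not downregulated. FOXO4 and MYC were upregulated with 0.57 and 0.27, and FOXO1, FOXO3 and ZBTB17 had -0.075, -0.057 and 0.17 without passing the test. The largest rises were those of KDM6B, a demethylase that removes the Polycomb mark, with 1.21, and of KDM2B, with 0.67. The Polycomb genes EZH2, EED, SUZ12 and RNF2, known to silence the INK4 locus, fell with log2 fold changes of -0.62, -0.58, -0.38 and -0.37, while CBX7 rose with 0.35 and BMI1 had 0.10 without passing the test.

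**Figure D4:**
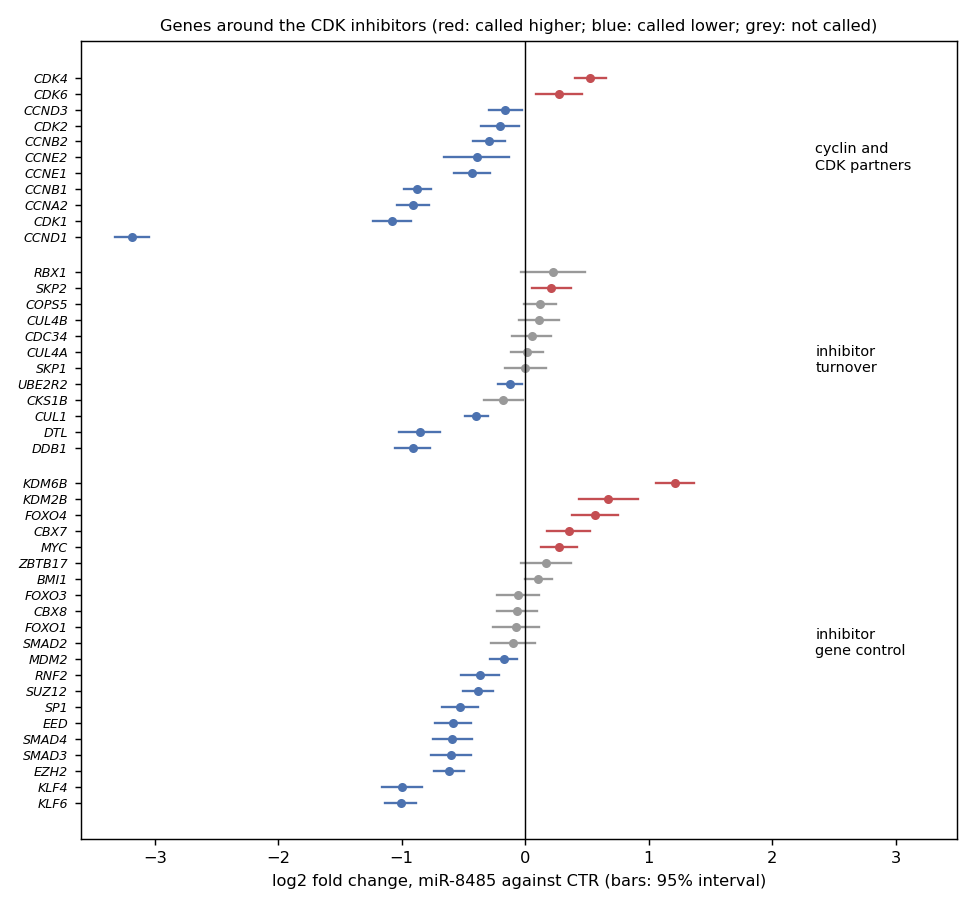
Log2 fold change in miR-8485 against CTR, with 95% intervals from limma, of tested genes of 3 lists around the CDK inhibitors, with 1 gene of the last list not shown. CCND1 stands far to the left at -3.18, CDK4 and CDK6 are the 2 upregulated genes of the first list, and KDM6B stands farthest to the right at 1.21.

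The genes with a pattern most like that of each inhibitor were ranked by Pearson's r of log2(FPKM + 0.1) over the 6 libraries, and those named are among the 3 highest. These values are a description, since a shared difference between the 2 groups of 3 is enough to give a high r. For CDKN1A they were LAMP2 and EFNB2, for CDKN2B H1F0, KATNAL1 and PPP1CC, and for CDKN2D TMEM158 and AREG, each with r of at least 0.999. For CDKN1B they were TOPBP1 and GABPB1 (r of 0.997 to 0.999), for CDKN1C S100A4, ATP5MC1 and TAF13 (r of 0.995 to 0.998) and for CDKN2C BMP8B, NHLRC2 and GTF2IRD1 (r of 0.997). CDKN2A was most like METTL17, UFM1 and MRPL51 (r of 0.988 to 0.989). The number of genes with r over 0.95 was 65 for CDKN2A and 363 to 2115 for the other 6 members.

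Each of the 6 falls was past the threshold in the 18 alternatives, or in the 17 in which CDKN2B and CDKN2C were tested, with an adjusted p in limma of at most 0.0096. In TPM, which sets each library's FPKM to a common sum, the median over all tested genes was -0.12 in place of -0.0041, and 35.6% in place of 48.8% of the called genes were upregulated. On that scale the 6 falls were larger, from -0.65 for CDKN1C to -1.90 for CDKN2B, and CDKN2A had 0.064 (adjusted p = 0.60 in limma).

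**Figure D5:**
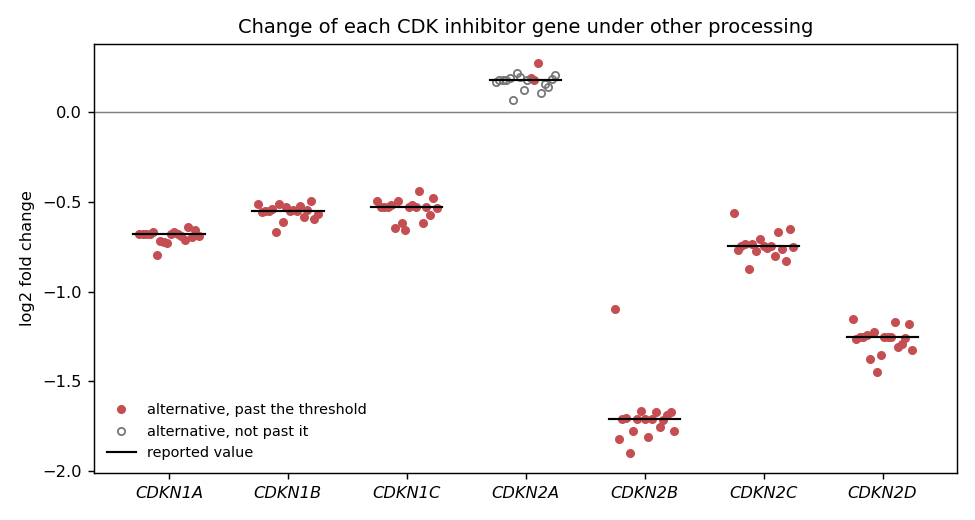
Log2 fold change of each CDK inhibitor gene under each alternative (points, filled red when past the threshold and open grey when not) and as reported (black line). The 6 called genes stay below 0 with filled points throughout, and CDKN2A stays above 0, at 0.064 to 0.27, with 3 filled points.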

How the data were processed

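RNA-seq libraries of HCT116 cells, 3 CTR and 3 miR-8485, were grouped by the sample titles. The authors trimmed paired-end reads with fastp 0.23.1, mapped them to hg38 with HISAT2 2.0.5 and counted them per gene with featureCounts 1.5.0-p3. The deposited values are FPKM, with no further scaling between libraries. In every library 100% of the values above 0 were whole multiples of 1 fragment (within 0.02), from which fragments were recovered.

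Log2(FPKM + 0.1) was tested with limma 3.58.1 (R 4.3.3, variance trend, two-sided, no covariate) for genes with a mean of at least 1 FPKM, with Benjamini-Hochberg adjustment. limma was also run on simulated data with planted changes. Intervals are 95% intervals of that fit. Sites were searched in GENCODE release 44 transcripts, and promoter windows came from RefSeq (GRCh38.p14), which had none for CDKN1C. Other steps used Python 3.11.15.

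The members and lists were chosen with earlier results of these data known. From each of 3 lists the text names the 2 genes most upregulated, the 2 most downregulated, and direct partners of a member. SP1, SMAD2, SMAD3, SMAD4, FOXO1, FOXO3, FOXO4, ZBTB17, MYC, CUL1, UBE2R2 and the Polycomb genes were added after their values were seen. For each member it names genes among the 3 with the highest r, its neighbors and overlapping genes. Alternatives were pseudocounts of 1 and 0.01, no filter, a mean of at least 5 FPKM, median-of-ratios, TPM and quantile scaling, removal of length and GC trends, no variance trend, voom on fragments, a replicate block, each library left out in turn, and the longest 3′ UTR. A further list and some genes of these lists and ranks are not reported here.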

Additional observations from a re-analysis of the deposited data

How the results depend on the processing

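Of 18 alternatives per gene, CDKN1A, CDKN1B, CDKN1C and CDKN2D kept direction and call in all 18, and CDKN2B and CDKN2C in the 17 that tested them, since the filter on a mean of at least 5 FPKM left both out and 4 members called lower. CDKN2A became called in voom (0.19), with the replicate block (0.18, adjusted p = 0.049 in limma) and without CTR replicate 1 (0.27), which made 1 member called higher in each of these 3. With each library left out, the log2 fold change of CDKN2A was 0.11 to 0.27 and the number of members called higher 0 to 1. Same-numbered libraries did not deviate together (correlations 0.067, 0.033 and -0.064), and 2 of 6 libraries correlated best with their own number, so the numbers were not used as pairs. The block gave 3634 upregulated and 3754 downregulated genes against 3593 and 3769. Partners called lower were 6 to 9. Those called higher were 1 without a filter, under the filter at 5 FPKM and in TPM, and 1 to 2 with a library left out. Turnover genes called higher were 0 without a filter and in TPM, 2 with quantile normalization, the length trend removed, voom and the replicate block, 3 with the GC trend removed, and 0 to 2 with a library left out. Control genes called higher were 3 under the filter at 5 FPKM, which left 15 of them to test. In TPM the log2 ratio of the CIP/KIP sum was -0.78 and of the INK4 sum -0.69. Members with the 7-base word were 2 in the longest 3′ UTRs. Unless the alternative itself removed genes or samples, the cause was not tested. At 55 to 236 fragments per library, CDKN2B and CDKN2C are measured less precisely than CDKN1A.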

Other observations

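CDKN3 carries a symbol like those of the inhibitors but encodes a phosphatase that acts on CDKs, and it is no member of either family. It had 23.2, 21.6 and 20.4 FPKM in CTR and 13.2, 12.6 and 12.6 FPKM in miR-8485, with no overlap, and was downregulated (log2 fold change -0.76 with a standard error of 0.06, limma adjusted p = 3.8e-05). CDKN2A-DT, which lies beside CDKN2A on the other strand, had 9, 6 and 2 fragments in CTR and 2, 0 and 2 in miR-8485, too few for a fold change.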
